A study of Mus musculus with 8 samples.

Results

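Lcn2 and 9 other genes of iron and heme handling were read out in cheek skin of mice with and without TBX20 in keratinocytes. They are the 10 of 18901 genes of the deposited table whose symbols are Lcn2, Slc22a17, Trf, Tfrc, Steap4, Fth1, Slc40a1, Cp, Hmox1 and Hpx, and each symbol matched 1 gene. In 3 of these genes the genotypes did not overlap, beside 7.05% of all genes tested: the level of Lcn2 and Fth1 was lower in every mouse without keratinocyte TBX20 (TBX20fl/fl;K14-Cre, knockout mice) than in any control mouse (TBX20fl/fl), and that of Slc22a17 was higher. With a trend in transcript length removed, Fth1 overlapped. As a fold change, the difference was largest for Lcn2, at 15.0 ± 2.81 FPKM (SD, n = 4 mice) against 39.3 ± 11.7 (SD, n = 4 mice). FPKM values are scaled to transcript length and to the size of each library. None of the 10 genes passed the threshold of 0.05 for the adjusted p of edgeR's quasi-likelihood test over all genes.

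All mice carried floxed Tbx20 alleles. In knockout mice, Cre recombinase under the keratin 14 promoter removes exons 2 and 3 in keratinocytes, so the other cells of the skin keep the gene, and the control mice have no Cre. The mice were female and 7 weeks old, and every one received 10 µg of brain natriuretic peptide (BNP), an itch-inducing peptide, in 10 µL into the skin of the left cheek. The skin was taken 5 h after a 30 min recording of behaviour, and each of the 4 mice per genotype gave 1 library of whole cheek skin. Skin without BNP was not analysed here, so the values compare genotypes after BNP and do not show a response to it.

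Lipocalin-2 is a secreted protein that binds the iron-loaded siderophores by which bacteria collect iron. It is stored in neutrophil granules, and epithelial cells, keratinocytes among them, make it in inflammation. Cells otherwise take up iron bound to transferrin, store it in ferritin and release it through ferroportin, while heme is broken down by heme oxygenase to iron, carbon monoxide and biliverdin.

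The total of the estimated counts was 16056282 to 19880654 per mouse, and 3 counts correspond to 0.151 to 0.187 CPM (counts scaled to the size of each library), a limit that covers counting error only. The targeted gene, Tbx20, was at 0 to 2 counts in knockout and 0 to 3 in control mice, too few for its loss to be detectable. Of the 17124 genes with at least 10 counts, edgeR's test called 0 after adjustment and 1431 at an unadjusted p under 0.05, while DESeq2 called 10. Control replicate 2 stood apart, with a median Spearman correlation across genes of 0.919 with the other mice against 0.974 to 0.990 for each of them. Against the median of the rest, this mouse was higher by 1.13 (log2 CPM) over the genes of the fifth with the shortest transcripts and shifted by -1.23 over the fifth with the longest. Results that rest on this mouse are therefore given also without it or with the trend in transcript length removed. The 10 keratinocyte markers were all present, with a summed level of 7591 to 9488 CPM in knockout skin and 8184 to 9961 CPM in control skin.

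The 10 genes spanned a wide range of expression. In FPKM, Fth1 was highest in every mouse, followed by Trf, Hmox1 and Steap4, whose ranges over the 8 mice did not touch those of their neighbours in this order. Cp, Lcn2, Tfrc and Slc40a1 came next, and among these 4 each overlapped the next one in range. Lcn2, which reached 51.6 FPKM in control replicate 2, also overlapped Steap4, which was at 44.2 FPKM in that mouse. Lcn2 stood above Tfrc in 4 of 8 mice. Slc22a17 and Hpx were lowest in all 8 mice, and Hpx had 6 to 20 counts in a mouse.

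**Figure D1:**
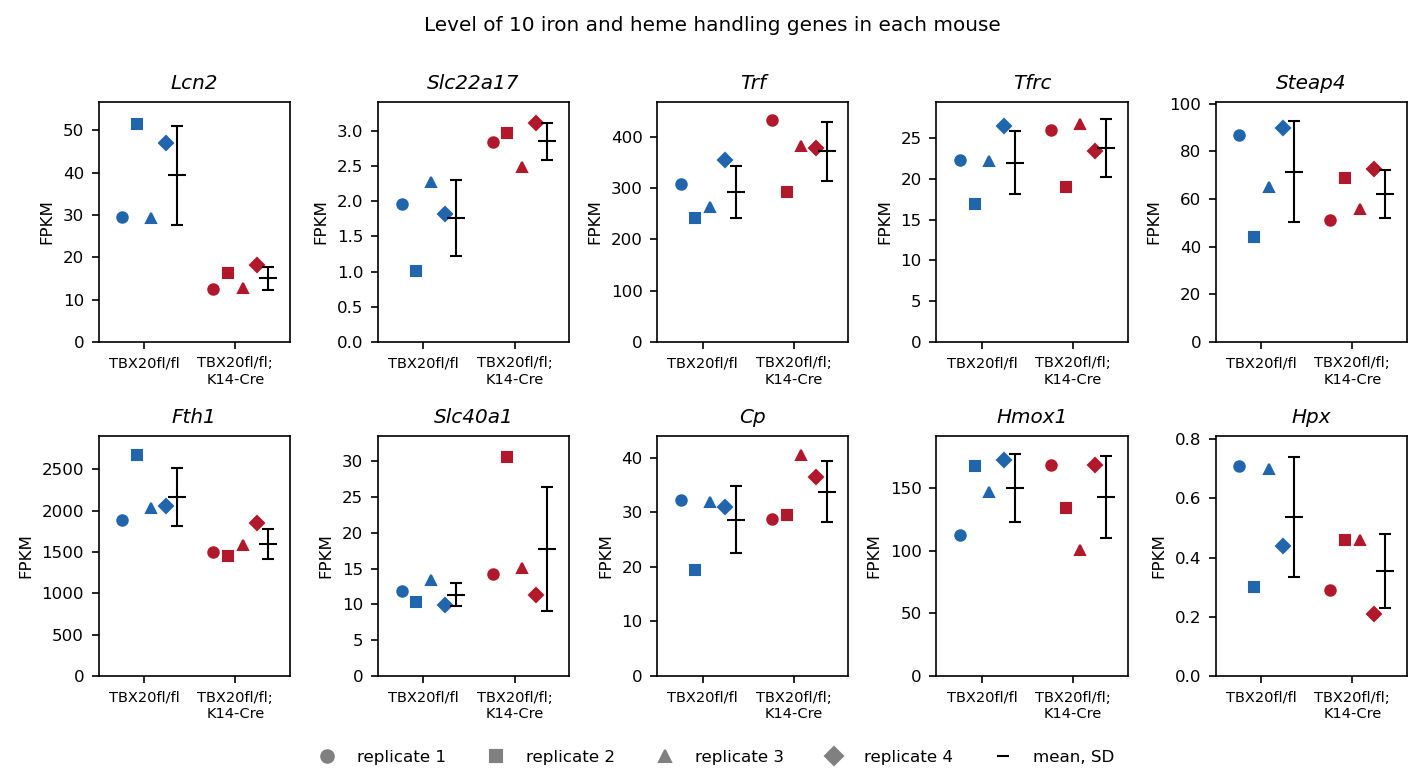
FPKM (y axis, from 0) of the 10 genes in each of 8 mice, with TBX20fl/fl in blue and TBX20fl/fl;K14-Cre in red, marker shape giving the replicate number and bars the mean and SD of 4 mice. The genotypes are apart for Lcn2, Fth1 and Slc22a17 and overlap for the other 7 genes, and 1 TBX20fl/fl;K14-Cre mouse lies far above the rest for Slc40a1 at 30.6 FPKM.

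Lcn2, the lipocalin-2 gene (NCBI gene 16819), occupies 32384637 to 32387739 of chromosome 2 (GRCm38, minus strand). Its FPKM was 12.5, 16.3, 12.8 and 18.3 in knockout replicates 1 to 4. In control replicates 1 to 4 it was 29.5, 51.6, 29.3 and 47.0. Every knockout mouse was below every control mouse (p = 0.0286 in a two-sided exact permutation test, which 4 mice against 4 cannot go below), and the same held for counts, at 193 to 292 against 446 to 723. In both genotypes, replicates 2 and 4 were the highest. Without control replicate 2 the control mean was 35.2 ± 10.2 FPKM (SD, n = 3). From counts, the log2 fold change was -1.61 (standard error 0.302, 95% confidence interval -2.29 to -0.93), with an adjusted p of 0.498 and an unadjusted p of 0.000417 in edgeR's quasi-likelihood test. In bulk skin, fewer cells of a type and less RNA per cell cannot be told apart. The study itself names Lcn2 for BNP-injected skin of these genotypes, so its direction is not independent evidence.

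The same difference was -1.53 with the replicate number as a block and -1.64 in DESeq2, with an adjusted p of 0.00307 (DESeq2 called 0.0584% of all genes). When single mice were dropped it lay between -1.77 and -1.28 (the latter without control replicate 2), and the unadjusted p in edgeR's test was at most 0.00208. Removing the trend in transcript length gave -1.25, and since this step moved the median of all genes to -0.15, the value relative to that median was -1.10. Within pairs of the same replicate number, Lcn2 was lower in the knockout mouse in 4 of 4.

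**Figure D2:**
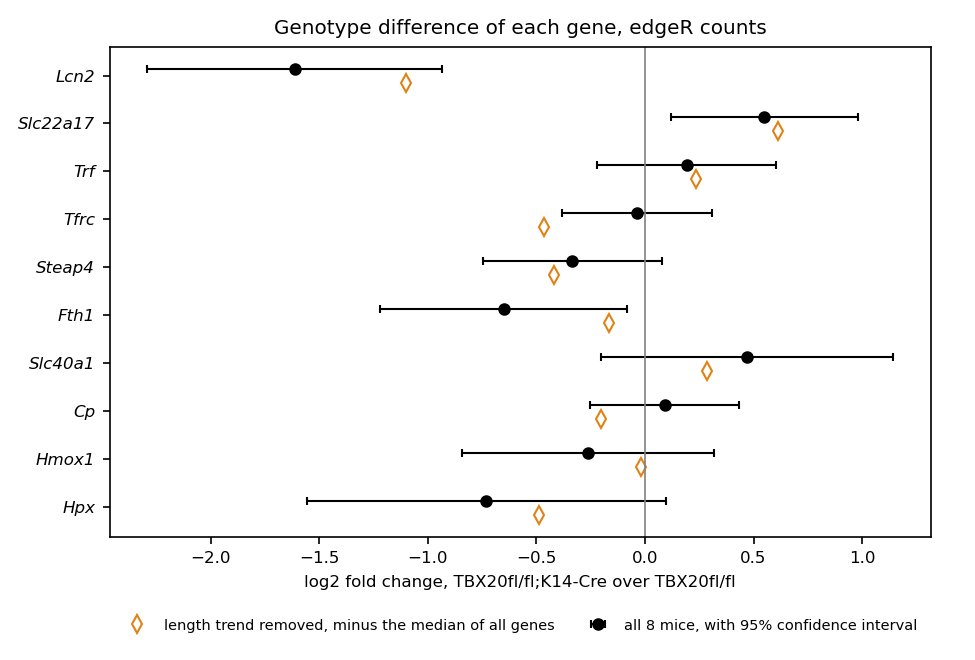
Log2 fold change between genotypes (x axis) of the 10 genes from edgeR on counts of 8 mice, as black points with 95% confidence intervals, and as open diamonds with the transcript length trend removed, relative to the median of all genes. The intervals of Lcn2, Fth1 and Slc22a17 leave out 0, and the diamond of Fth1 lies at -0.17.

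The bases just upstream of Lcn2 are shown beside those of Slc22a17, the gene for its receptor, which was higher in knockout mice, and of Steap4, another gene known to be induced in inflammation. Each window holds the 250 bases before the annotated start, 5′ to 3′ on the gene's strand, from RefSeq on GRCm38.p6, and 7 of the 10 genes had such an entry (all but Hmox1, Trf and Slc40a1). Capitals mark matches to 6 short motifs on either strand.
Lcn2, chr2:32387740-32387989, minus strand: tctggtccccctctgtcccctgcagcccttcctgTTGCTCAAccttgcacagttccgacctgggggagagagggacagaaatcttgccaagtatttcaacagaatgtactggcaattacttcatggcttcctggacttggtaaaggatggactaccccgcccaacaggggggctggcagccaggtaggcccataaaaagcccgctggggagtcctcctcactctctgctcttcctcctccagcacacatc
Slc22a17, chr14:54913133-54913382, minus strand: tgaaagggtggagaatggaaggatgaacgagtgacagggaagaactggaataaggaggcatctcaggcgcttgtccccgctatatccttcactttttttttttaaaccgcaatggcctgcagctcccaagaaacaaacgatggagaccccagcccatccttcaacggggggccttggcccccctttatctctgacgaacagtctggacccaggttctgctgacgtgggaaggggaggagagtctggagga
Steap4, chr5:7960222-7960471, plus strand: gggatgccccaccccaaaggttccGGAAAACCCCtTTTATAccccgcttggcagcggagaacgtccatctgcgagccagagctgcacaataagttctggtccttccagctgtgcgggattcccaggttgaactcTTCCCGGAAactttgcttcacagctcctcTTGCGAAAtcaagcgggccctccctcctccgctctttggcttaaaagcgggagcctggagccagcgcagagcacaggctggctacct
The motifs searched were the T-box site GGTGTGA, the NF-kB consensus, C/EBP as TTNNGCAA, STAT as TTCNNNGAA, the antioxidant response element as TGACNNNGC and the TATA box as TATAAA. The window of Lcn2 held 1 match, to the C/EBP letters on the reverse strand (TTGCTCAA, bases -216 to -209 before the start). C/EBP letters occurred in 9.56% of 32851 such windows. Slc22a17 had no match. Steap4 had matches to the NF-kB (share of all windows 1.41%), C/EBP, STAT (7.02%) and TATA (12.4%) letters, and the NF-kB and TATA matches lay next to each other without overlap. The STAT letters read the same on both strands, so their match at -116 to -108 was found on each. GGTGTGA was in none of the 7 windows and in 3.33% of all windows. A match of letters is a description of the sequence and no measure of binding.

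Slc22a17, which encodes a cell surface receptor for lipocalin-2, is on the minus strand of chromosome 14 from 54906727 to 54913132. It was at 2.85, 2.97, 2.49 and 3.11 FPKM in knockout replicates 1 to 4. The control mice had 1.96, 1.01, 2.27 and 1.82 FPKM in the same order. Every knockout mouse was thus above every control mouse (exact permutation test, p = 0.0286), with means of 2.86 ± 0.266 and 1.77 ± 0.537 (SD, n = 4 each). Its counts were 113 to 145 against 38 to 99, and the lowest was again control replicate 2. The log2 fold change was 0.55 ± 0.191 (standard error), and edgeR's test gave an adjusted p of 0.498 and an unadjusted p of 0.0177. It was 0.56 with the block, 0.44 to 0.66 with a mouse left out, and 0.61 relative to the median of all genes with the length trend removed. Reads of this gene could be shared with other transcripts over 0.903% of its 50-base stretches.

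Trf encodes transferrin, the iron carrier of plasma. In knockout mice its FPKM was 432.9, 293.4, 382.4 and 378.7. In control mice it was 307.5, 242.6, 263.2 and 355.6, so the groups overlapped, with the means at 372 ± 57.9 and 292 ± 50.2 (SD, n = 4 each, exact permutation test, p = 0.0857). Trf was higher in the knockout mouse in 4 of 4 same-numbered pairs in FPKM, and in 3 of 4 in CPM. From counts, the log2 fold change was 0.19 with an edgeR adjusted p of 0.577. It was 0.096 without knockout replicate 1, 0.13 without control replicate 3 and 0.29 without knockout replicate 2, and 0.23 relative to the median of all genes with the length trend removed. Of the 50-base stretches of Trf, 59.4% also occur in other annotated transcripts, among them Gm20425, a gene on the same strand that overlaps Trf and has no row in the deposited table, so how its reads were assigned is uncertain.

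Tfrc, the transferrin receptor of iron uptake, had 26.0, 19.0, 26.8 and 23.4 FPKM in knockout mice. The control mice had 22.4, 17.0, 22.2 and 26.5 FPKM, which overlapped them, with replicate 2 the lowest of all 8 mice (exact permutation test, p = 0.457). Its log2 fold change of -0.037 (95% confidence interval -0.38 to 0.31) was the closest to 0 of the 10. The direction was not fixed, with 0.11 in limma on log2(FPKM + 1) and a value of -0.47, relative to the median of all genes, once the length trend was removed. That step moved control replicate 2 from 112.6 CPM, within the range of the other mice, to 260.4 CPM. No other mouse was then above 109.8 CPM, so the -0.47 leans on this mouse. A value with the trend removed and without this mouse was not computed.

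Steap4 encodes a metalloreductase that reduces iron and copper ahead of their uptake. Its FPKM was 51.1, 68.8, 56.0 and 72.4 in knockout mice. In control mice it was 86.9, 44.2, 65.2 and 89.8. Control replicate 2 was the lowest of all 8 mice, and the other 3 control mice, at 65.2 to 89.8, still overlapped the knockout mice. In edgeR's test over all mice the log2 fold change of Steap4 was -0.34 with an unadjusted p of 0.0991. Without control replicate 2 it was -0.42 with an unadjusted p of 0.0224 and an adjusted p of 0.638 in the same test. With the length trend removed the log2 fold change was -0.57 (unadjusted p = 0.00823 in edgeR's test), or -0.42 relative to the median of all genes. The groups then did not overlap in CPM, at 144.3 to 187.1 against 199.1 to 291.0. The 291.0 was control replicate 2, which this step moved from the lowest control mouse, at 185.8 CPM, to the highest of all mice.

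Fth1 encodes the heavy chain of ferritin, which oxidises iron for storage, and lies on chromosome 19 from 9980600 to 9985111. Its FPKM was 1502, 1456, 1582 and 1849 in knockout mice. The control mice had 1892, 2678, 2030.0 and 2051 FPKM. The highest knockout mouse was just below the lowest control mouse, and the groups did not overlap (1597 ± 176 against 2163 ± 351, SD, n = 4 each, exact permutation test, p = 0.0286). From counts, the log2 fold change was -0.65 ± 0.252 (standard error), and edgeR's test gave an adjusted p of 0.498 and an unadjusted p of 0.0287. It was -0.59 with an unadjusted p of 0.0538 with the replicate block. Without control replicate 2 the log2 fold change was -0.36 with an unadjusted p of 0.0187 in edgeR's test. Fth1 has a short transcript, of 893 bases as the counts and FPKM values imply. With the length trend removed its log2 fold change was -0.31 (-0.17 relative to the median of all genes) and the groups overlapped in CPM. Of its 50-base stretches, 1.59% also occur in Gm6977.

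Slc40a1 encodes ferroportin, the exporter that releases iron from cells. Knockout mice had 14.2, 30.6, 15.0 and 11.3 FPKM. Control mice had 11.9, 10.3, 13.4 and 9.90 FPKM, within a narrow range that overlapped the other genotype (exact permutation test, p = 0.0857). Within same-numbered pairs the knockout mouse was higher in 4 of 4 in FPKM and CPM, and in 3 of 4 in CPM with the length trend removed. Knockout replicate 2 stood alone at the top, and the log2 fold change of 0.47 (adjusted p = 0.503 in edgeR's test) dropped to 0.082 without it. With the length trend removed the log2 fold change was 0.28 relative to the median of all genes.

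Cp encodes ceruloplasmin, a copper oxidase that loads iron onto transferrin after export. It was at 28.8, 29.4, 40.4 and 36.4 FPKM in knockout mice. Of the control mice, 3 had 30.9 to 32.3 FPKM and replicate 2 had 19.5, and the groups overlapped (exact permutation test, p = 0.314). From counts, the log2 fold change of Cp was 0.091 (adjusted p = 0.740 in edgeR's test) and turned to -0.35 with the length trend removed, or -0.20 relative to the median of all genes. With that trend removed, control replicate 2 had the highest CPM of all mice, at 227.8.

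Hmox1 encodes the inducible heme oxygenase, which splits heme and frees its iron. Its FPKM was 168.4, 133.8, 100.7 and 168.2 in knockout mice. The values of control mice were 112.3, 167.4, 147.0 and 172.2, overlapping them (exact permutation test, p = 0.743), and the log2 fold change was -0.26 (95% confidence interval -0.84 to 0.32). It ran from -0.41 without control replicate 1 to -0.053 without control replicate 2, with -0.13 without knockout replicate 3. Hpx, for the heme-binding plasma protein hemopexin, had 8, 13, 13 and 6 counts against 20, 7, 19 and 12. The groups overlapped at these low counts, and the log2 fold change of -0.73 (95% confidence interval -1.56 to 0.095) had an edgeR adjusted p of 0.498.

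Over the 10 genes, 3 had groups without overlap in FPKM, where the share was 7.05% of the 17124 genes tested (1.87% lower and 5.19% higher in knockout mice). In CPM it was the same 3 genes, beside 6.92% of all genes. All 10 genes had passed the minimum of 10 counts. At an unadjusted p under 0.05 in edgeR's test, 2 of 10 were lower, beside 5.91% of all genes, and 1 of 10 higher, beside 2.45%. The number lower was 1 with the replicate block. The median log2 fold change of the 10 genes was -0.15, with 6 of 10 below 0, beside 0.026 and 47.5% over all genes. In CPM with the length trend removed, 3 of 10 genes again had no overlap, beside 5.27% of all genes, but they were Lcn2, Steap4 and Slc22a17.

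The wider pathway was covered by 7 lists with 67 other genes, of which 66 were tested and 0 passed an edgeR adjusted p of 0.05, while DESeq2 called 1, the haptoglobin gene Hp. At an unadjusted p under 0.05, 9 of the 66 were lower in knockout skin, beside 5.91% of all genes, and 1 was higher, beside 2.45%, and their median log2 fold change was -0.089. All 9 lower genes came from the lists of heme breakdown and of known inducers of Lcn2. The 1 higher gene, Meltf, reached the minimum count for testing through the knockout mice, so it lends this tally no support. With the length trend removed, the list medians relative to the median of all genes were -1.23 for the inducers, -0.11 for heme breakdown and -0.17 to 0.084 for the other 5 lists.

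**Figure D3:**
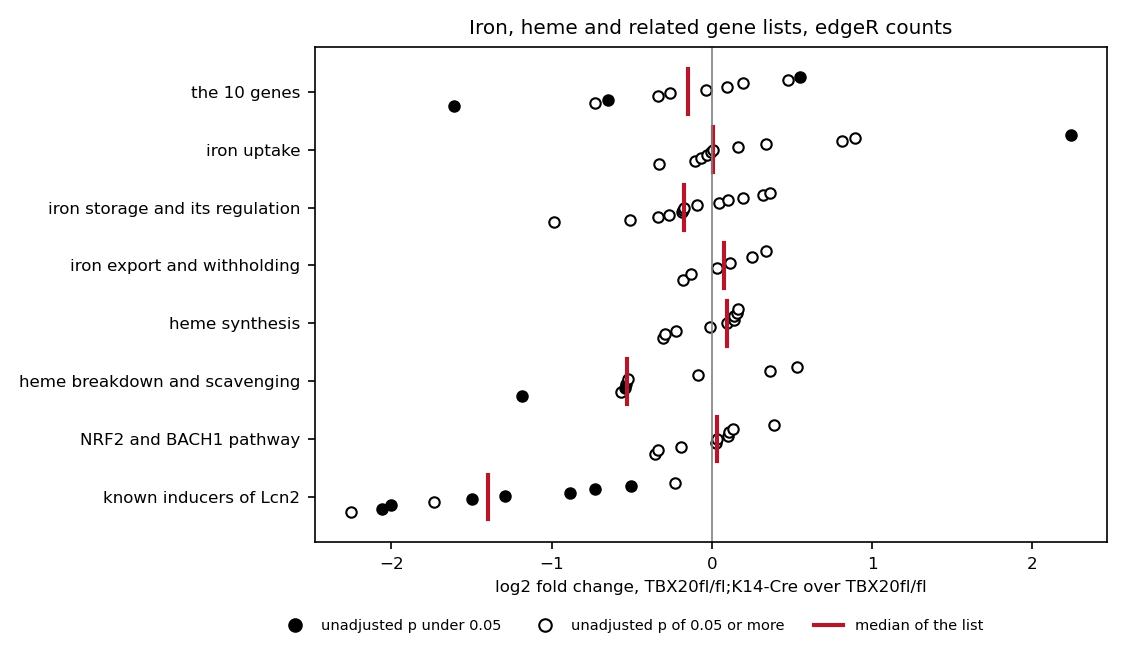
Log2 fold change between genotypes (x axis, edgeR on counts of 8 mice) of each tested gene in 7 lists and of the 10 main genes, filled where the unadjusted p is under 0.05, with the median of each list as a red bar. The known inducers of Lcn2 have a median of -1.40 with 10 of 10 genes below 0, and heme breakdown and scavenging one of -0.53, while the medians of the other 5 lists lie between -0.17 and 0.092. Il17a and Il17f, among the inducers, have at most 6 counts in a mouse.

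In heme breakdown and scavenging, 2 of 8 genes had an unadjusted p under 0.05, both lower in knockout mice, beside 5.91% of all genes. Hp encodes haptoglobin, which binds free hemoglobin in plasma and is also made in inflamed tissue and stored by neutrophils. Its FPKM was 279.4, 451.1, 353.8 and 404.5 against 605.6, 668.6, 706.9 and 1039 (p = 0.0286, exact permutation test). The genotypes did not overlap, and the log2 fold change was -1.19 (adjusted p = 0.498 and unadjusted p = 0.000485 in edgeR's test), or -0.89 relative to the median of all genes with the length trend removed. Hp is 1 of the genes the study picked from these libraries, so its direction is not independent evidence. Hmox2, the constitutive heme oxygenase, was at 53.7 to 56.2 FPKM against 57.3 to 86.4, with a log2 fold change of -0.54 (unadjusted p = 0.0490 in edgeR's test). The value of 86.4 was that of control replicate 2, and with the length trend removed Hmox2 was at -0.17 relative to the median of all genes. Abcg2, a heme and porphyrin exporter, had -0.57 (unadjusted p = 0.0579 in the same edgeR test).

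In iron uptake, 0 of 11 genes were lower and 1 was higher at an unadjusted p under 0.05. That gene, Meltf, which encodes melanotransferrin, had 2 to 5 counts against 0 to 1, close to the limit of 3 counts. Meltf reached the minimum count for testing through the knockout mice, so its direction is no evidence. Cybrd1, a ferric reductase of the plasma membrane, had a log2 fold change of 0.81 and Slc39a8, a metal importer, one of 0.90, with unadjusted p-values of 0.0589 and 0.119 in edgeR's test. Slc39a8 was at 31.9 FPKM in knockout replicate 2 and at 5.86 to 8.53 FPKM in the other 3 knockout mice, and a fit blocked on replicate number gave it a log2 fold change of 0.51. In iron storage and its regulation, 0 of 13 genes had an unadjusted p under 0.05. Hfe, a regulator of hepcidin, had -0.33, Bmp6, a growth factor that induces hepcidin, had 0.36, and Aco1, the iron-responsive element binding protein 1, had 0.32, or 0.031 relative to the median of all genes with the length trend removed. Ftl1, the light chain of ferritin and the partner of Fth1, was at 985 to 1191 against 1033 to 1702 FPKM with a log2 fold change of -0.51 (unadjusted p = 0.0835 in edgeR's test). The 1702 was that of control replicate 2, and with the length trend removed Ftl1 was at -0.027 relative to the median of all genes. Ftl1 was named after its value was seen.

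Export and withholding, heme synthesis and the NRF2 and BACH1 pathway, which controls Hmox1 and ferritin, had 0 of 6, 0 of 9 and 0 of 9 genes with an unadjusted p under 0.05 in edgeR's test. Among their smallest p-values were those of Hephl1, Heph and Slc11a1 (log2 fold changes 0.34, 0.25 and -0.18), of Urod and Cpox (-0.29 and 0.16), and of Gclc, Nqo1 and Nfe2l2 (0.39, -0.33 and -0.19). With the length trend removed, the values relative to the median of all genes were -0.0012 for Hephl1, -0.062 for Heph and 0.066 for Urod, each turned in sign. Hephl1 and Heph are copper oxidases of iron export, Slc11a1 is a metal transporter of phagosomes, and Urod and Cpox are enzymes of heme synthesis. Gclc and Nqo1 are targets of Nfe2l2, which encodes NRF2.

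Of the known inducers of Lcn2, cytokines and transcription factors, 7 of 10 tested genes were lower at an unadjusted p under 0.05 in edgeR's test, beside 5.91% of all genes, and 10 of 10 had a log2 fold change below 0, beside 47.5%. Il17a, at 0 to 2 counts against 1 to 6, and Il17f, at 0 to 2 against 1 to 4, reached the minimum of 10 counts through the control mice. Their direction is therefore no evidence, and neither is among the 7. Il1b, a major inflammatory cytokine, had a log2 fold change of -2.06, Tnf, another one, -1.29, and Osm, the oncostatin M gene, -1.50, with unadjusted p-values of 0.00493 to 0.00945 and adjusted p-values of 0.498 in edgeR's test. The genotypes overlapped in FPKM for each of these 3 genes, as for Il1b with 13.0 to 58.6 against 57.1 to 197.6. Il22 had 0 counts in knockout mice and 0 to 1 in control mice and was not tested. The summed level of the 10 genes was 159.7 to 257.3 CPM in knockout mice and 280.8 to 662.9 CPM in control mice, or 280.8 to 355.1 CPM without control replicate 2. Osm, Il17a and Il1b are also genes the study names for BNP-injected skin, so the direction of this list is not independent evidence.

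Of 12 neutrophil markers, 0 passed an adjusted p under 0.05 in edgeR's test or in DESeq2. Their summed level was 92.5, 142.4, 123.9 and 207.2 CPM in knockout mice. In control mice it was 206.3, 608.3, 209.1 and 527.0 CPM. The 2 groups met at a single pair of mice at 206.3 and 207.2 CPM, and replicates 2 and 4 were the highest in both genotypes, as for Lcn2. S100a8 and S100a9 gave 35.1% to 48.2% of this sum in knockout mice and 46.3% to 79.3% in control mice, the latter in replicate 2. The study treats S100a8 and S100a9 as markers of skin damage, so this sum need not come from neutrophils alone. The other 10 markers, summed without these 2 after the values were seen, were at 60.0, 73.8, 72.4 and 114.4 CPM against 110.9, 126.2, 94.1 and 171.5 CPM, and single markers did not all share the order of Lcn2. Csf3r and Mmp9, at 8.66 and 1.69 FPKM in control replicate 2, were lowest there among the control mice. Of the 12, 8 were lower and 0 higher at an unadjusted p under 0.05 in edgeR's test, beside 5.91% of all genes, with a median log2 fold change of -1.54. Mpo, Ngp and Elane are among the 8. With at most 3 counts in a knockout mouse, they reached the minimum of 10 counts through the control mice, so they lend this tally no support. S100a8 and S100a9, the subunits of calprotectin, had -2.10 and -2.09, or -1.34 and -1.38 relative to the median of all genes with the length trend removed. Csf3r and Mmp9 had -0.51 and -0.0022, and Camp had 0.57 at 0 to 16 counts. The granule genes Camp, Ngp, Mpo and Elane and the surface marker Ly6g had at most 16 counts in any mouse. Camp, Ngp and Mpo were at 0 in some mice, and none of the 12 was at 0 in all of them. The part of the neutrophil markers in the Lcn2 result was not tested.

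**Figure D4:**
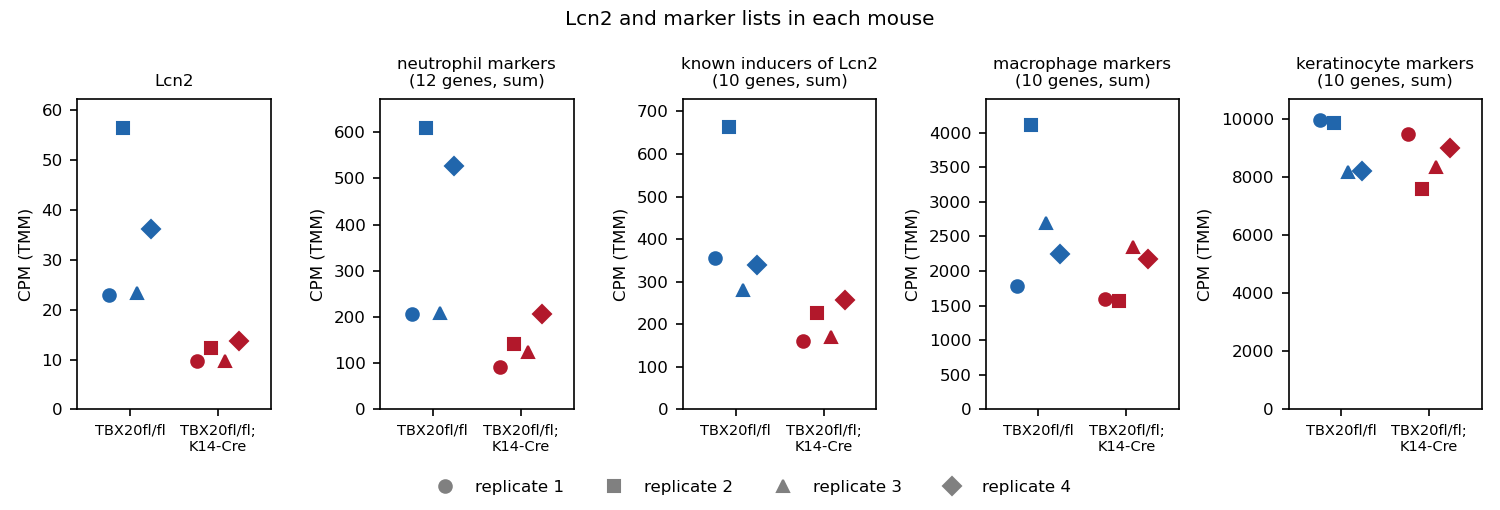
Lcn2 and the summed levels of 12 neutrophil markers, 10 known inducers of Lcn2, 10 macrophage markers and 10 keratinocyte markers in each of 8 mice (y axes, TMM-scaled CPM from 0), with TBX20fl/fl in blue, TBX20fl/fl;K14-Cre in red and marker shape giving the replicate number. Lcn2 and the inducers do not overlap between genotypes, the neutrophil sums meet at 206 to 207 CPM, and the macrophage and keratinocyte sums overlap.

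The summed levels of the other marker lists, for macrophages, keratinocytes, fibroblasts, adipocytes, skeletal muscle and red blood cells, overlapped between genotypes. Macrophages, which recycle heme iron and express Hmox1, Fth1 and Slc40a1, had a summed marker level of 1572 to 2347 CPM against 1788 to 4109 CPM. Their upper value was that of control replicate 2, and the other 3 control mice had 1788 to 2694 CPM. In none of these 6 lists did a gene pass an adjusted p under 0.05 in edgeR's test or in DESeq2. Of the 10 macrophage markers, 3 were lower and 1 higher at an unadjusted p under 0.05 in edgeR's test, beside 5.91% and 2.45% of all genes. The 3 lower ones were Fcgr1 (log2 fold change -0.74), Lyz2 (-0.83) and C1qb (-0.59), and with the length trend removed they were at -0.80, -0.34 and -0.17 relative to the median of all genes. The higher one was Mertk (0.58, or 0.34 on that scale). Lyz2 was highest in control replicate 2, at 2044 FPKM. Keratinocyte markers gave 0 of 10 in either direction. Of the 6 fibroblast markers, 2 were higher in knockout mice at this threshold, Col1a1 (log2 fold change 1.10) and Col1a2 (0.75), chains of type I collagen. Relative to the median of all genes with the length trend removed they were at 0.80 and 0.32, and control replicate 2 had the lowest level of both, at 60.7 and 200.6 FPKM. Dcn and Lum, which encode the proteoglycans decorin and lumican, had -0.64 and -0.52 (-0.49 and -0.46 relative to that median). The median of the 6 turned from 0.40 to -0.049 on that scale. Adipocyte, skeletal muscle and red blood cell markers gave none. The part of macrophages in the Fth1 result was not tested.

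The genes whose level over the 8 mice was most like that of Lcn2, by Pearson's r of log2 CPM among 14408 genes with a mean of at least 1 CPM, were Cstdc4 (r = 0.979), Clec5a (0.975), Flot1 (0.974), Ms4a4c (0.969) and Clec4d (0.968). These values pool both genotypes, so they carry the genotype difference, and the length trend was not removed. An r above 0.9 was found for 156 genes. With the mean of each genotype removed, r was 0.882 to 0.975 for the genes just named. Clec5a and Clec4d are C-type lectin receptors of myeloid cells. Among the main genes with a mean of at least 1 CPM, Fth1 had the highest r with Lcn2, at 0.904, and Slc22a17 the lowest, at -0.903. With the mean of each genotype removed these were 0.833 and -0.658. Control replicate 2 was the highest mouse for Lcn2 and Fth1 in CPM and the lowest for Slc22a17, and no r without it was computed. The study picked Ms4a4c from these libraries.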

How the data were processed

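RNA of BNP-injected cheek skin gave 1 library for each of 8 mice. The authors read single ends of 50 bases, removed poor reads with SOAPnuke and used HISAT for alignment, and the deposited table gives GRCm38 coordinates. The authors deposited estimated counts (expected counts), of which 69.0% of those above 0 are not whole, and FPKM values. The program that made the counts is not given in the sources used here. TPM values, counts divided by size factors, and the authors' own 17 comparisons between mice (log2 fold changes, p-values, q-values) were deposited and not used. No column belonged to a sample of another series.

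Counts were rounded, and the 17124 genes whose 8 mice summed to 10 or more were compared between genotypes by edgeR 4.0.16 (quasi-likelihood test after TMM scaling, R 4.3.3), with Benjamini-Hochberg adjustment over all genes and a threshold of 0.05. The fits were tested on simulated counts. FPKM of single genes were compared by two-sided exact permutation tests over 70 assignments of the mice (scipy 1.17.1). These assignments ignored the replicate numbers. Members and gene lists were chosen with earlier results of these data known. Named genes are the 10 genes, Tbx20, up to 3 genes with the smallest unadjusted p from each pathway list and the 5 genes most like Lcn2. For 1 of the pathway genes the values are not reported here. The labels name no litter, cage or day, so p-values measure only the spread between these libraries, which may be technical in part.

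Replicate numbers are in the labels, which do not say what a number stands for. Deviations from the group means correlated at 0.323, 0.275, 0.176 and 0.108 in same-numbered pairs. The mean of -0.0672 in the other pairs adds no support, since deviations from a group mean cancel within the group. On this weak basis the numbers were taken to pair the mice. Alternatives were DESeq2 1.42.0, other scalings and filters, limma 3.58.1 on log2(FPKM + 1) or log2(FPKM + 0.1), the replicate block, removal of a trend with transcript length (fitted where the mean count was 50 or more) and leaving out each mouse. Stretches of 50 bases of each gene's annotated transcripts were compared with all other transcripts.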

Additional observations from a re-analysis of the deposited data

Results flagged for a closer look

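In 2 of 60 groups of 4 mice, 1 mouse lay far from the others relative to the range of its group, and chance alone gives about 3.0. Cp was at 19.5 FPKM in control replicate 2, below the other 3 control mice. This library was shifted down over long transcripts, and the counts and FPKM values imply 4168 bases for Cp. In CPM this mouse was at 112.1 against 123.3 to 132.1 in the other 3. With the length trend removed it was the highest of all mice, at 227.8 CPM. Slc39a8, a metal importer, was at 31.9 FPKM in knockout replicate 2, while the other 3 mice of that genotype had 5.86 to 8.53 FPKM and the control mice 5.72 to 6.78 FPKM.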

How the results depend on the processing

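The lower level of Lcn2 and the higher level of Slc22a17 kept their direction and an unadjusted p under 0.05 in 19 of 19 alternatives. An adjusted p under 0.05 came only from DESeq2, which called 10 genes, 9 of them lower, and 1 of the 10 main genes, Lcn2, at -1.64 (adjusted p = 0.00307). The number of main genes lower at an unadjusted p under 0.05 was 1 with the replicate block, 1 with limma on log2(FPKM + 1) and 1 with limma without a filter, and 1 to 3 with a mouse left out (1 without knockout replicate 1, 2 or 3, and 3 without control replicate 2). The block took the unadjusted p of Fth1 to 0.0538 and changed no other call. Tfrc turned to 0.11 and 0.12 with limma (pseudocounts 1 and 0.1) and 0.11 without a filter, and ran from -0.096 to 0.060 with a mouse left out, above 0 without knockout replicate 2 (0.060) and without control replicate 4 (0.012). Cp turned to -0.35 with the length trend removed and -0.29 with the block added, and ran from -0.0050 (without knockout replicate 3) to 0.15. For Tfrc and Cp the cause was not tested. limma moved the median of all genes to 0.12 and 0.18, and relative to it Tfrc was -0.0033 at a pseudocount of 1. Hpx, at 6 to 20 counts, is limited by depth.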

Other observations

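Ferritin heavy chain and the transferrin receptor are controlled in opposite directions by the iron regulatory proteins. The ratio of Tfrc to Fth1 in FPKM, chosen after the values were seen, was 0.0173, 0.0130, 0.0170 and 0.0127 in knockout mice. In control mice it was 0.0118, 0.00635, 0.0109 and 0.0129, so the groups overlapped at a single mouse. Tfrc has the longer transcript, and in CPM with the length trend removed the ratio was 0.0493 to 0.0741 in knockout mice and 0.0539 to 0.121 in control mice, with control replicate 2 the highest. The ratio of Fth1 to Ftl1, the 2 chains of ferritin, was 1.33 to 1.63 in knockout mice and 1.55 to 1.83 in control mice, also with overlap.

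Knockout replicate 2 had the highest level of the exporter Slc40a1, at 30.6 FPKM, of the importer Slc39a8, at 31.9 FPKM, and of the ferric reductase Cybrd1, at 2.60 FPKM. No other mouse was above 15.0 FPKM for Slc40a1, 8.53 FPKM for Slc39a8 or 1.56 FPKM for Cybrd1.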
